A study of Mus musculus with 11 samples.

Results

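The genes of interest were Tnfrsf4, Tnfrsf18 and Tnfrsf9, which encode the receptors OX40, GITR and 4-1BB, and the question was where Foxp3, Elf1, Ets1 and Cbfb had been mapped around them in mouse CD4 T cells. The members were all deposited binding positions and Foxp3 peaks inside 2 windows of 70 kb on chromosome 4 in build mm9. The Tnfrsf4-Tnfrsf18 window ran from 155360000 to 155430000, and the Tnfrsf9 window from 150270000 to 150340000. Together they held 163 members, of which 160 were binding positions and 3 were Foxp3 peaks, out of 1061984 entries in all lists. The assay was chromatin immunoprecipitation with sequencing, in which DNA bound by a factor is pulled down with an antibody and counted against a control.

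The groups used were Treg cells with an affinity-purified polyclonal Foxp3 antibody (2 replicates, 1 of them with 2 technical repeats, merged by the authors into 1 peak list), Treg cells with Elf1, Ets1 or Cbfb antibody (1 library each), and Foxp3-negative CD4 T cells, called CD4 cells here, with Elf1 or Ets1 antibody (1 library each). All cells came fresh from lymph nodes and spleen of mice about 8 weeks old and were separated by a green fluorescent protein marking Foxp3. The sources used here give neither the mouse strain nor the number of animals. No expression was measured, so the sorted cell types could not be checked against marker genes. Each group other than Foxp3 had 1 library, so no difference below has a replicate check and no p-value is given. More cells with a bound site and more binding per cell cannot be told apart.

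Receptors of this family have no enzyme activity of their own. After binding their ligands on antigen-presenting cells they recruit TRAF adaptor proteins, which lead to NF-kappaB and thereby to survival and division of T cells. In mice, GITR and OX40 are present on resting Treg cells at higher levels than on resting conventional CD4 T cells, whereas 4-1BB is known mainly as a receptor induced by activation. Elf1 and Ets1 are ETS family factors, which recognise a GGAA core. Cbfb does not bind DNA itself and stabilises Runx proteins on DNA. Foxp3 is the forkhead factor that defines Treg cells.

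The RefSeq gene table, on build GRCm38.p6, places Tnfrsf4 and Tnfrsf18 next to each other apart from the predicted genes Gm16008 and Gm25982. Sdf4 and B3galt6 lie on one side of this stretch and Ttll10 on the other, while Park7 and Gm23405 flank Tnfrsf9. An mm9 annotation was not used here, so no mm9 position below is called promoter, intron or exon of a gene, and the window limits were not checked against gene limits. The promoters of the 3 genes are shown because they are the regulatory sequences of the receptors themselves. They come from RefSeq, build GRCm38.p6, plus strand, from 250 bases before to 50 bases after each start, at chr4:156013445-156013744 for Tnfrsf4, chr4:156026072-156026371 for Tnfrsf18, and chr4:150919905-150920204 and chr4:150927749-150928048 for the 2 starts of Tnfrsf9. These coordinates cannot be set against the mm9 positions. Capitals mark matches to ETS letters (CCGGAA or AGGAAG), Runx letters (TGTGGT or TGCGGT) or forkhead letters (TGTTTA or GTAAACA) on either strand.
Tnfrsf4 promoter: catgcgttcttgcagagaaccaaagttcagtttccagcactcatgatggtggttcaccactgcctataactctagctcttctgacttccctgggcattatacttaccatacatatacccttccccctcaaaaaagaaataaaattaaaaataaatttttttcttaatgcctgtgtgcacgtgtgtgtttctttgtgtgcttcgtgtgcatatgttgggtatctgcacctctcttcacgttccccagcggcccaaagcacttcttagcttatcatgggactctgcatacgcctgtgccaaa
Tnfrsf18 promoter: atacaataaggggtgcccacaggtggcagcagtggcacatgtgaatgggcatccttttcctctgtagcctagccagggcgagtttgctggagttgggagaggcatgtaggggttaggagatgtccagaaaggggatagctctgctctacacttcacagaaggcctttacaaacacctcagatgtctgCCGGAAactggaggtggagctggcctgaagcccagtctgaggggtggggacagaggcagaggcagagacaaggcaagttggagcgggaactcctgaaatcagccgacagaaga
Tnfrsf9 promoter, first start: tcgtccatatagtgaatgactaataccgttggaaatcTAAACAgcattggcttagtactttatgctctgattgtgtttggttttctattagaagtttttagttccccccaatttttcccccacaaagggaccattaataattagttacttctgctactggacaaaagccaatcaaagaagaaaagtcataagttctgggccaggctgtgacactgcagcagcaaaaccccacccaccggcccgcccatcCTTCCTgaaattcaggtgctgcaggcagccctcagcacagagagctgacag
Tnfrsf9 promoter, second start: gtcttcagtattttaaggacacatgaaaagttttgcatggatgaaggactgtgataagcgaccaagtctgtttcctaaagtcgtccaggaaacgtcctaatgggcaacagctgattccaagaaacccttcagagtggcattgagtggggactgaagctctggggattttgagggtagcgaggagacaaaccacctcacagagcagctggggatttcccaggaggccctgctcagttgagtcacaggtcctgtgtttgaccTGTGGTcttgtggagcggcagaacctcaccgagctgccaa

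Only 4 matches lay in these promoters. The Tnfrsf18 promoter had CCGGAA 63 bases before the start, a form found in 14.9% of 32851 RefSeq promoters. At the first Tnfrsf9 start, CTTCCT, the reverse complement of AGGAAG, began 1 base before the start, and 35.4% of promoters held AGGAAG on one strand or the other. The same promoter had TAAACA, the reverse complement of TGTTTA, 213 bases before the start, and 13.4% of promoters held it. The longer forkhead form GTAAACA contains the TGTTTA match on its other strand and was in 3.65% of promoters. At the second Tnfrsf9 start the Runx letters TGTGGT were found 10 bases after the start, as in 16.8% of promoters. The Tnfrsf4 promoter held none of these letters, which says only that they are not in this window of 300 bases. The bare GGAA core was not searched, and it does occur in the printed Tnfrsf4 sequence, as ttcc on the other strand. TGCGGT, present in 6.45% of promoters, was in none of the 4.

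Elf1 and Ets1 positions were dense in the Tnfrsf4-Tnfrsf18 window. The fold enrichment of a position, the lower bound of that fold and the score that ranks it within its list are the authors' values. Counted were positions with a false discovery rate (FDR) of at most 0.01. This limit kept 84% of deposited Elf1 positions in Treg and 22.2% in CD4, 27.3% of Ets1 positions in Treg and 17.4% in CD4, and 75.2% of the Cbfb positions. The window held 15 Elf1 positions in Treg and 12 in CD4, 19 Ets1 positions in Treg and 10 in CD4, and 4 Cbfb positions in Treg. Positions were counted whatever their fold. In each of the 5 libraries some of them had a fold lower bound below 1, for Treg Ets1 down to 0.0753 at 155394278. With an FDR of at most 0.001, 9 Treg Ets1 positions remained. As background, the chromosomes were cut into 35745 tiles of 70 kb that held a position in any list. The Treg Ets1 count was 11.0 times the mean tile (exact Poisson 95% interval 6.63 to 17.2, counting error only), and 0.207% of tiles had as many. Treg Elf1 was at 3.40 times the mean tile (1.91 to 5.61), with 1.27% of tiles as dense. CD4 Elf1 was at 8.02 (4.14 to 14.0) and CD4 Ets1 at 8.52 (4.09 to 15.7) times the mean, with 0.733 and 1.33% of tiles as dense. Treg Cbfb, at 1.18 times the mean (0.321 to 3.01), was close to the background, and 43.1% of tiles had as many.

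The Tnfrsf9 window was less dense in each of the 5 libraries, but the counting intervals of the windows overlapped. It held 6 Treg Elf1, 10 Treg Ets1, 2 Treg Cbfb, 7 CD4 Elf1 and 6 CD4 Ets1 positions. Some of the Treg Ets1 positions again had a fold lower bound below 1, down to 0.0753 at 150312291. Treg Ets1 was at 5.80 times the mean tile (2.78 to 10.7), CD4 Elf1 at 4.68 (1.88 to 9.64) and CD4 Ets1 at 5.11 (1.88 to 11.1). Treg Elf1 was at 1.36 (0.500 to 2.96) and Treg Cbfb at 0.588 (0.0713 to 2.13), intervals that both included the mean tile. As many Elf1 positions were found in 29.7% of tiles in Treg and 4.15% in CD4, as many Ets1 positions in 1.48% in Treg and 4.32% in CD4, and as many Cbfb positions in 80.2%. Tiles include gene-poor DNA, so these shares place the windows within the genome and show nothing particular to receptor genes. Because the lists differ in length, the 10000 highest scores of each were also compared. The Tnfrsf4-Tnfrsf18 window then held 4 Elf1 positions in Treg and 4 in CD4, and 7 Ets1 positions in Treg and 5 in CD4. The Tnfrsf9 window held 2 Elf1 positions in Treg and 5 in CD4, and 5 Ets1 positions in Treg and 1 in CD4, numbers too small to order the cell types.

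**Figure D1:**
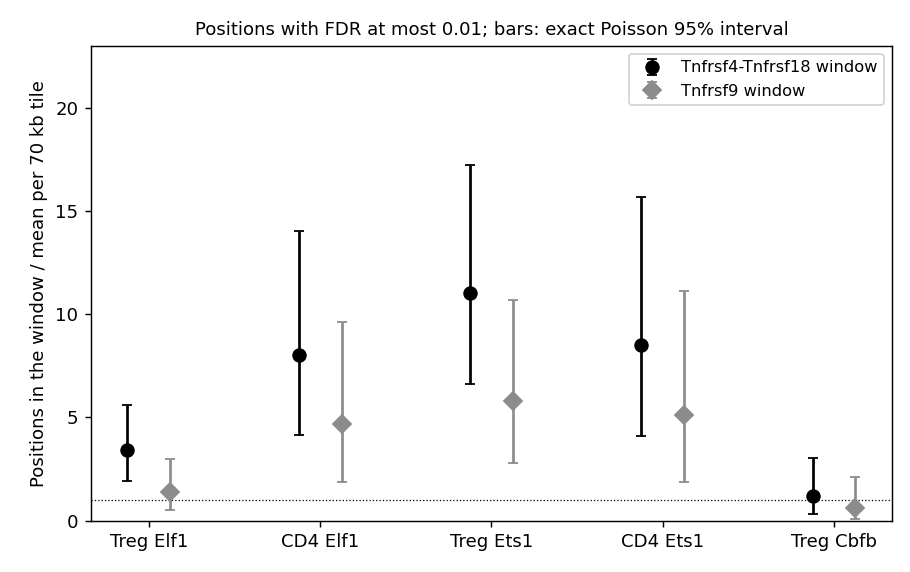
Number of positions with an FDR of at most 0.01 in each window, divided by the mean number per 70 kb tile, for the 5 libraries (points, with exact Poisson 95% intervals as bars). Elf1 and Ets1 of both cell types lie above 1 in the Tnfrsf4-Tnfrsf18 window, with Treg Ets1 at 11.0, while the Cbfb intervals include 1 in both windows.

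All 3 Foxp3 peaks lay in the Tnfrsf4-Tnfrsf18 window and 0 in the Tnfrsf9 window. Of the 70 kb tiles, 5.47% held any Foxp3 peak and 0.632% held 3 or more. The peak nearest to the Tnfrsf9 window, at 150182759 to 150182959, was 87 kb outside it. The Foxp3 list has no score and gives nothing below the authors' own threshold, so weaker Foxp3 binding near Tnfrsf9 was not measurable here. Within 200 bp of each of the 3 peaks lay positions of Elf1 and Ets1, in Treg and in CD4. Of all 2886 Foxp3 peaks, 85.2% had an Elf1 position in Treg and 88.9% one in CD4, and 83.5% had an Ets1 position in Treg and 89% one in CD4, so this was the usual state of a Foxp3 peak. Cbfb was within 200 bp of 1 of the 3 peaks, against 28.1% of all peaks, and within 500 bp of 3 of 3, against 34.5%. The peaks starting at 155396093 and 155396398 shared the same Cbfb position, at 155396538, so the 3 peaks are not separate cases.

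The single Foxp3 peak, at 155378230 to 155378430, carried strong Elf1 enrichment in both cell types. Treg Elf1 had a position at 155378410 with a 30.2-fold enrichment (lower bound 8.43), and CD4 Elf1 one at 155378407 with 40.3-fold (lower bound 11.9). The positions were 3 bp apart and ranked 2432 by score of 187745 in Treg and 1901 of 241359 in CD4. Both exceeded the upper quartile of Elf1 positions at all Foxp3 peaks, which was 18.8-fold in Treg and 22.0-fold in CD4.

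Ets1 at the same peak had a lower fold enrichment in Treg than in CD4. The Treg Ets1 position at 155378466, 36 bp outside the interval, had 4.66-fold (lower bound 0.761), and the CD4 Ets1 position at 155378385, inside it, had 15.0-fold (lower bound 4.18). A lower Treg value was usual at Foxp3 peaks, where 28.2% of 2149 Ets1 pairs were higher in Treg and the median log2 ratio of Treg over CD4 was -0.52. The quartiles of fold enrichment at these peaks were 3.77- and 9.99-fold for Treg Ets1 and 5.26- and 15.0-fold for CD4 Ets1. In rank by score the Treg position was 43722 of 226148 and the CD4 position 6574 of 242086. The Treg value had a lower bound under 1, and its FDR of 0.00566 was not far below the limit of 0.01 used here. It is among the positions lost when the FDR limit is set to 0.001.

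A Treg Cbfb position at 155378715, 285 bp outside the single peak, had a 44.4-fold enrichment (lower bound 7.08). By fold enrichment it ranked 25 of 161760 in its library, a rank shared by 39 positions with the same value. By score, 3.77, it ranked only 18351. The nearest Ets1 position was 249 bp from it in Treg and 330 bp in CD4.

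The other Foxp3 peaks formed an adjacent pair at 155396093 to 155396293 and 155396398 to 155396598, 105 bp apart and 17663 bp from the single peak. Of 2864 neighbouring Foxp3 peaks in the genome, 5.9% were at most 200 bp apart. Inside the first of the pair lay a Treg Elf1 position at 155396133 with 12.2-fold enrichment, and inside the second one at 155396424 with 10.1-fold, both near the median of 10.3-fold for Treg Elf1 at Foxp3 peaks. CD4 Elf1 had a position only in the second interval, at 155396464 with 10.6-fold, against a median of 11.6-fold at Foxp3 peaks. It was 171 bp outside the first.

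Ets1 also marked the adjacent pair in both cell types. Treg Ets1 had 1 position, at 155396329 between the intervals, with 4.18-fold (lower bound 1.57). CD4 Ets1 had 8.84-fold at 155396460 inside the second interval, its highest score of the window (rank 1793), and 4.18-fold at 155395949, 144 bp outside the first. Treg Cbfb had 5.75-fold at 155396538, inside the second interval, and this was its highest score of the window, at rank 18207. All 5 libraries thus had a position inside the second interval or at most 69 bp outside it.

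**Figure D2:**
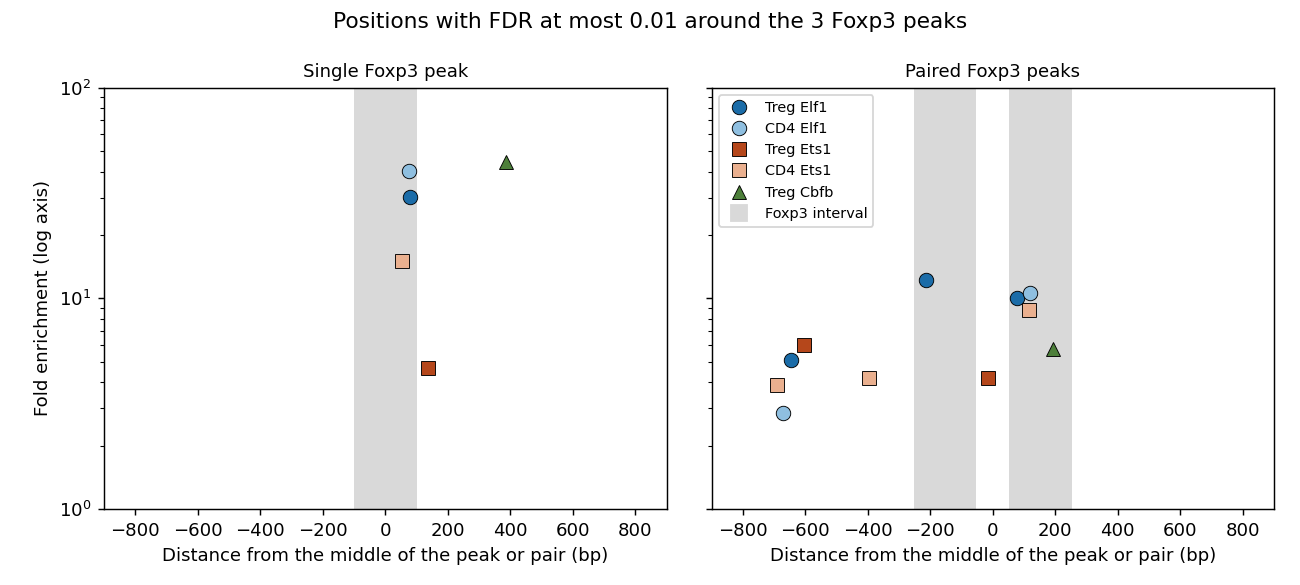
Fold enrichment (log axis) of positions with an FDR of at most 0.01 against distance in bp from the middle of the single Foxp3 peak (left) and of the adjacent pair (right). Grey bands are Foxp3 intervals. At the single peak Elf1 of both cell types and CD4 Ets1 lie inside the band, with Treg Ets1 and Cbfb outside it.

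A further site lay 353 bp from the nearest Foxp3 interval of the pair and had all 4 Elf1 and Ets1 libraries within 84 bp. Here the Treg fold values were higher. Elf1 had 5.12-fold at 155395700 in Treg and 2.86-fold at 155395675 in CD4. By score the Elf1 order was reversed, with rank 93516 of 187745 in Treg and 12647 of 241359 in CD4. Ets1 had 5.99-fold at 155395740 in Treg, rank 2743, and 3.86-fold at 155395656 in CD4, rank 4845.

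The strongest Elf1 site of the window was not at a Foxp3 peak. Treg Elf1 reached 89.8-fold (lower bound 37.8) at 155367262, with a score of 104, which was rank 8 of 187745 in the whole library. CD4 Elf1 reached 84.5-fold (lower bound 35.8) at 155367279, with a score of 188 and rank 62 of 241359. Ets1 was present as well, with 5.42-fold at 155367331 in Treg and 12.0-fold at 155367280 in CD4. The nearest Foxp3 peak was 10968 bp away from the Treg Elf1 position. Such a place without Foxp3 was common at the top of the list: 12% of the 100 highest-scoring Treg Elf1 positions and 13% of the 100 highest-scoring CD4 Elf1 positions were within 200 bp of a Foxp3 peak. Beside it, between 155366452 and 155366694, lay a weaker site with positions of all 5 libraries. Elf1 there had 8.97-fold in Treg and 12.5-fold in CD4, and Cbfb 4.85-fold. Ets1 there had 1.43-fold in Treg (lower bound 0.199, rank 3565) and 4.68-fold in CD4 (lower bound 1.64, rank 5738).

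**Figure D3:**
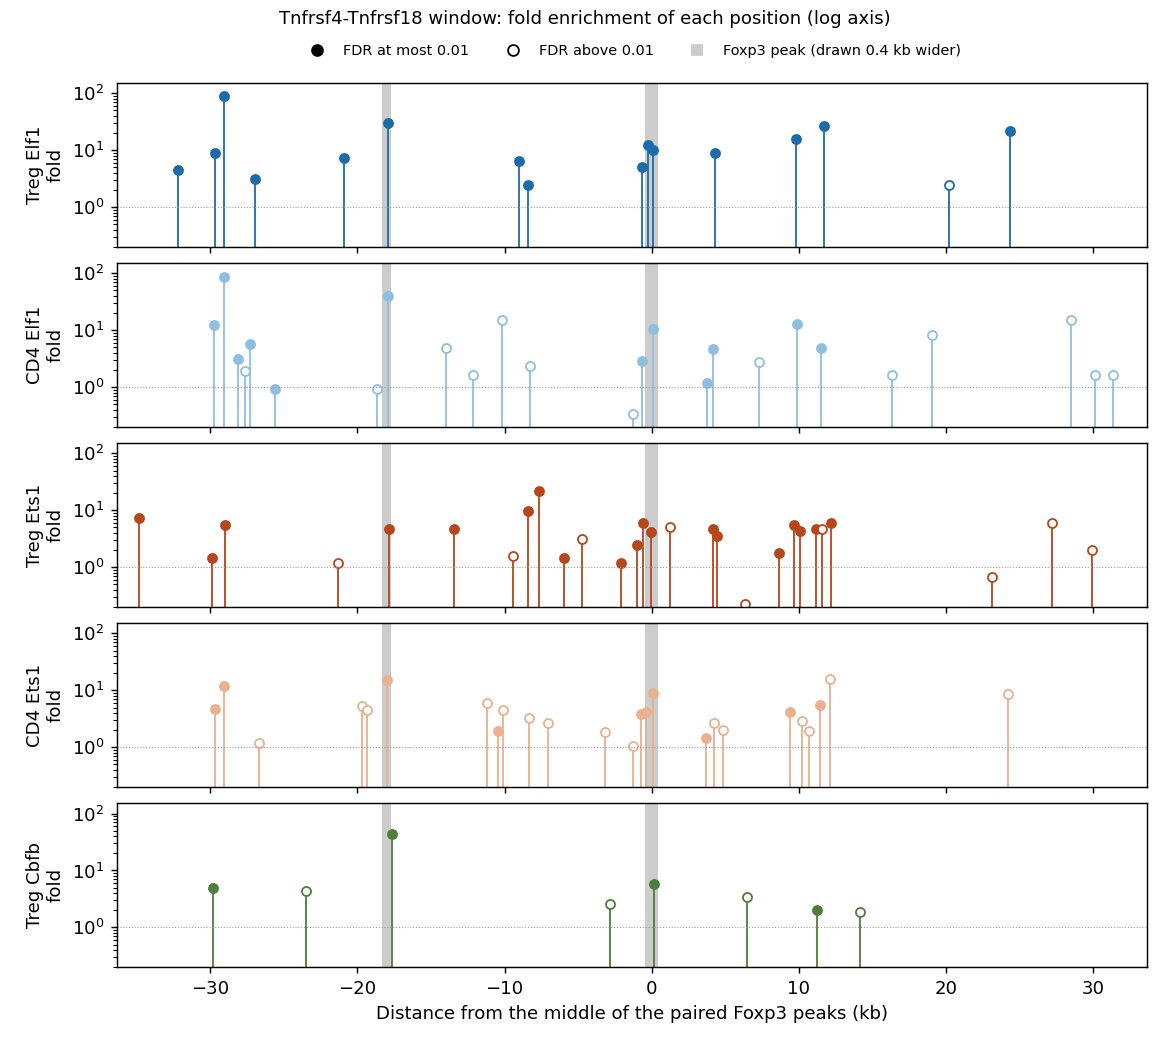
Fold enrichment (log axis) of every deposited position in the Tnfrsf4-Tnfrsf18 window against distance in kb from the middle of the adjacent Foxp3 peaks, 1 panel per library. Filled points passed an FDR of 0.01, open points did not, and grey bands mark Foxp3 peaks. The Elf1 points of 89.8-fold in Treg and 84.5-fold in CD4 stand near the left end, away from the bands.

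The highest-scoring Treg Ets1 position of the window had no CD4 Ets1 position that passed within 200 bp. It lay at 155387969 with 9.54-fold enrichment (lower bound 3.86), rank 643 of 226148. CD4 Ets1 had 3.29-fold at 155388013, 44 bp away, with an FDR of 0.0364 and rank 78396 of 242086. Of the 1000 highest-scoring Treg Ets1 positions, 3.1% lacked a CD4 Ets1 position that passed within 200 bp. Treg Elf1 was weak there, with 2.45-fold at 155387963 (lower bound 0.589), and CD4 Elf1 had 2.32-fold at 155388057 with an FDR of 0.163. Another Treg Ets1 position, at 155388707, had 22.0-fold, the highest Ets1 fold of the passing positions in the window, but a score of 3.86 and rank 57890. Its nearest deposited CD4 Ets1 position was 565 bp away.

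Between the adjacent Foxp3 peaks and the right end of the window, positions of all 5 libraries were scattered without a Foxp3 peak. Between 155404991 and 155408524, limits chosen after the values had been seen, 12 positions passed, of which 5 were Treg Ets1. Elf1 had 15.5-fold at 155406163 in Treg (rank 121015 of 187745) and 12.7-fold at 155406209 in CD4 (rank 18520 of 241359). A Treg Ets1 position of 5.42-fold lay at 155406003. Treg Elf1 also had 26.9-fold at 155408054 (lower bound 3.84, rank 32478), a fold shared by 4077 positions of its list. There CD4 Elf1 had 4.97-fold (lower bound 1.35, rank 30842) at 202 bp, just over the distance that counted as a pair. A Treg Ets1 position with 4.66-fold at 155407539, rank 3246, was among the 3 highest Treg Ets1 scores of the window. Nearer to the pair, at 155400548 to 155400785, Treg Elf1 had 8.97-fold (rank 98830) and CD4 Elf1 4.60-fold (rank 15370). Treg Ets1 had up to 4.66-fold there, and the CD4 Ets1 position at 155400613 had an FDR of 0.0905.

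In the Tnfrsf9 window the position with the highest fold enrichment was Elf1 near the left edge. Treg Elf1 had 30.2-fold at 150273014 (rank 3271) and CD4 Elf1 18.2-fold at 150273001 (rank 8426), with no Ets1 position that passed in either cell type within 200 bp. The Treg fold equalled that at the single Foxp3 peak, and 46 Treg Elf1 positions in the genome shared it. Fold values thus came in steps: 14953 Treg Ets1 positions, for example, had the same 4.66-fold.

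Both sites of the Tnfrsf9 window that had all 4 Elf1 and Ets1 libraries lacked a listed Foxp3 peak, as did the whole window. At the first, from 150288593 to 150288806, Treg Elf1 had 11.7-fold and CD4 Elf1 up to 17.6-fold, while Treg Ets1 had 6.44-fold and CD4 Ets1 12.9-fold. That CD4 Ets1 position, at 150288596, had the highest CD4 Ets1 score of the window, at rank 4398. At the second, from 150312291 to 150312371, Treg Elf1 had 3.34-fold and CD4 Elf1 6.78-fold, while Treg Ets1 had 1.20-fold and CD4 Ets1 3.99-fold. The lower bound was 0.0753 for this Treg Ets1 position and 1.34 for the CD4 one. By score, however, the Treg Ets1 position ranked 9759 of 226148, and the CD4 one 20034 of 242086. The second-highest CD4 Ets1 score, with 4.61-fold, was close by at 150312747.

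The highest CD4 Elf1 score of the Tnfrsf9 window belonged to a site that was much weaker in Treg. Treg Elf1 had 2.99-fold at 150284001 (lower bound 0.811, rank 12619), and CD4 Elf1 14.5-fold at 150283998 (lower bound 6.28, rank 2635). This log2 ratio of Treg over CD4, -2.28, was lower than all but 2.59% of Elf1 pairs in the genome. CD4 Ets1 was present at 150283877 with 2.95-fold, and Treg Ets1 at 150283915 had 3.33-fold with an FDR of 0.122.

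The highest Treg Ets1 score of the Tnfrsf9 window lay elsewhere, at 150299325 with 4.39-fold and rank 2966 of 226148. CD4 Ets1 had a higher fold, 6.07, 26 bp from it, but a lower place by score, rank 17796 of 242086. No Elf1 position passed at this site. Treg Ets1 also had 9.99-fold at 150314468 and 3.33-fold at 150289555, the other two of its 3 highest scores. The 2 Treg Cbfb positions, at 150301753 and 150305321, had 2.03- and 0.373-fold, below the Cbfb median of 4.36-fold.

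**Figure D4:**
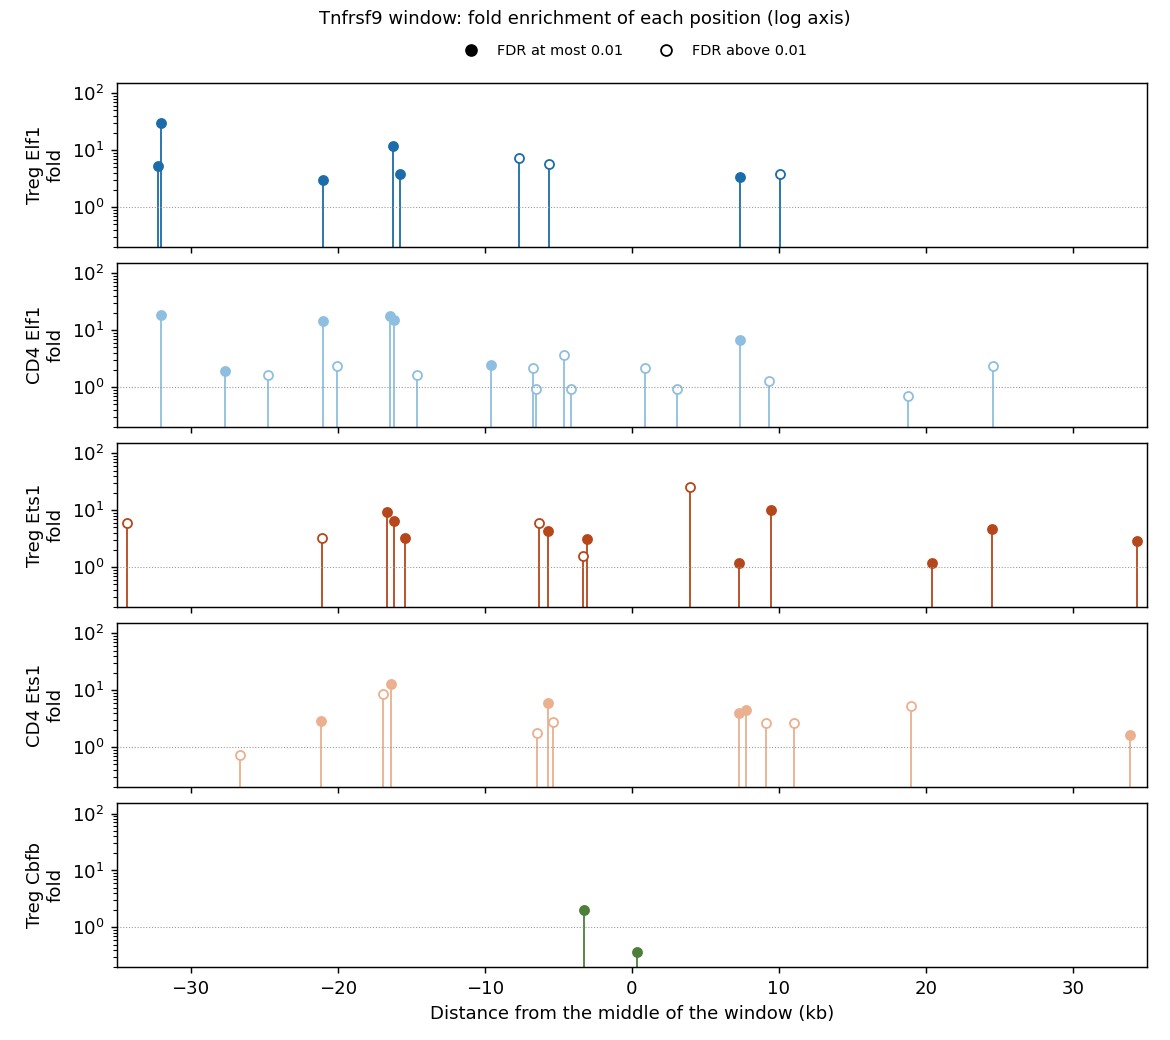
Fold enrichment (log axis) of every deposited position in the Tnfrsf9 window against distance in kb from the middle of the window, 1 panel per library. Filled points passed an FDR of 0.01 and open points did not. No Foxp3 peak falls in the window, and the highest filled point is the 30.2-fold Treg Elf1 position at the left edge.

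Treg and CD4 fold enrichments of the same factor were compared where positions of both lay within 200 bp. In the windows together there were 11 Elf1 pairs and 7 Ets1 pairs. For Elf1 the median log2 ratio of Treg over CD4 was -0.08 (range -2.28 to 0.96), with 5 of 11 higher in Treg, against 42.3% of 17926 pairs in the genome and a genome median of -0.17 (quartiles -0.81 and 0.50). For Ets1 the median was -1.14 (range -1.73 to 0.63), with 1 of 7 higher in Treg, against 31.5% of 11551 pairs and a genome median of -0.44 (quartiles -1.11 and 0.18). By fold enrichment, Ets1 pairs of the windows were thus mostly lower in the Treg library, as were Ets1 pairs in the genome. By score rank within each list the Ets1 direction was mixed. The Treg rank was better at 155366452 (3565 against 5738 in CD4), 155395740 (2743 against 4845), 150299325 (2966 against 17796) and 150312291 (9759 against 20034). The CD4 rank was better at the pairs of Treg positions 155367331 (2491 against 4931 in Treg), 155378466 (6574 against 43722) and 155396329 (1793 against 4827). Among Elf1 pairs the Treg rank was better only at 155367262 (8 against 62 in CD4), 150273014 (3271 against 8426) and 150288796 (4894 against 7564). All other Elf1 pairs had the better rank in CD4. They included 155395700 (12647 against 93516 in Treg), 155400674 (15370 against 98830) and 155406163 (18520 against 121015), where the fold was higher in Treg. With all deposited positions there were 15 Ets1 pairs, of which 7 were higher in Treg, and their median was -0.25. With 7 pairs that share their 2 libraries, whether the windows differ from the genome was not tested, and the control and depth behind the fold values are unknown.

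Within the Tnfrsf4-Tnfrsf18 window the 7 Elf1 pairs had a median log2 ratio of 0.09 (range -0.48 to 0.96), with 4 higher and 3 lower in Treg. The 5 Ets1 pairs had a median of -1.14 (range -1.71 to 0.63), with 1 higher and 4 lower. The ranges of the factors overlapped, and in the genome too the Ets1 median lay below that of Elf1. With all deposited positions of both windows the medians were -0.0026 for Elf1 and -0.25 for Ets1. A difference between the factors was not tested. The Ets1 pair that was higher in Treg was the site 353 bp from the Foxp3 pair. At the single Foxp3 peak the log2 ratio was -0.42 for Elf1 and -1.68 for Ets1. At the adjacent pair it was -0.08 for Elf1 and -1.08 for Ets1, both against CD4 positions inside the second interval. The CD4 Ets1 position nearest to the first interval, at 155395949, had 4.18-fold, as had the Treg one at 155396329, but had no Treg partner within 200 bp. The Treg Elf1 position inside the first interval had no CD4 partner within 200 bp. In the Tnfrsf9 window 1 of 4 Elf1 pairs and 0 of 2 Ets1 pairs were higher in Treg.

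**Figure D5:**
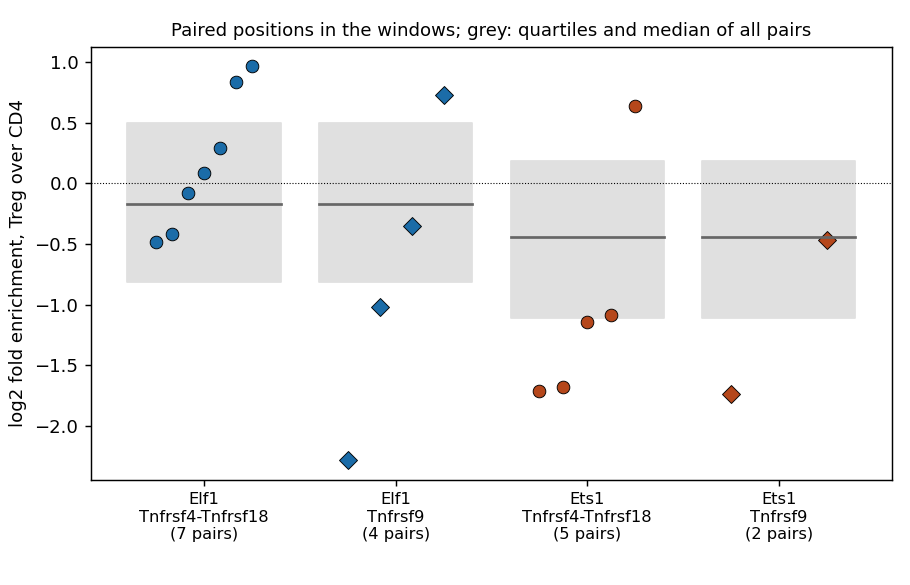
log2 ratio of fold enrichment, Treg over CD4, for each pair of positions within 200 bp in the windows (points). Grey bands are the quartiles of all pairs in the genome and lines their medians, -0.17 for Elf1 and -0.44 for Ets1. All Ets1 points but 1, at 0.63, lie below 0.

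A position was next counted as having a partner where the other cell type had a position of the same factor within 200 bp and with an FDR of at most 0.01. Of the positions in the Tnfrsf4-Tnfrsf18 window, 7 of 15 Treg Elf1 and 5 of 19 Treg Ets1 positions had a CD4 partner, against 11.4 and 18.7% in the genome. From the CD4 side 7 of 12 Elf1 and 5 of 10 Ets1 positions had a Treg partner, against 32.5 and 27.7%. In the Tnfrsf9 window the counts were 4 of 6 Treg Elf1, 2 of 10 Treg Ets1, 4 of 7 CD4 Elf1 and 2 of 6 CD4 Ets1 positions. Lists of different length enter these shares. Where any deposited CD4 position within 200 bp counted, whatever its FDR, 8 of 15 Treg Elf1 and 10 of 19 Treg Ets1 positions of the Tnfrsf4-Tnfrsf18 window had a partner. In that window 3 Treg Elf1 and 3 Treg Ets1 positions had no deposited CD4 position of their factor within 1 kb.

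Positions of all 5 libraries were joined into sites wherever neighbours were at most 200 bp apart, which gave 32 sites in the Tnfrsf4-Tnfrsf18 window and 19 in the Tnfrsf9 window. Most, 21 and 13, came from 1 library. All 4 Elf1 and Ets1 libraries met at 5 sites of the Tnfrsf4-Tnfrsf18 window and 2 of the Tnfrsf9 window, against 1.85% of 371172 sites in the genome. Foxp3 was within 200 bp of 2 of these 5 sites and 0 of these 2, against 26.4% of the 6856 such sites in the genome. The 0 follows from the absence of any Foxp3 peak in the Tnfrsf9 window and is not a separate result. Sites with all 5 libraries numbered 2 and 0, against 0.38% of all sites. The CD4 maps, made in cells without Foxp3, thus had Elf1 and Ets1 positions within 200 bp of all 3 Foxp3 peaks of the windows. Of all Foxp3 peaks, 88.9% had CD4 Elf1 and 89% CD4 Ets1 within this distance, so 3 of 3 was the usual state. Within 100 bp each was at 2 of the 3 peaks. The CD4 maps also had both factors at sites of the same kind where no Foxp3 peak was listed.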

How the data were processed

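Reads had been aligned to mouse build mm9 with Bowtie 0.12.7, per the submitters' processing notes. The authors deposited 1 Foxp3 interval list, from combined replicates per the labels, with no score. The 5 other lists they deposited hold single-base positions. Per the file headers, each position has an FDR (q-value), a score, and a fold enrichment given as lower bound and maximum likelihood estimate. The caller, the control and the depth per library are not given in the sources used here. Depth is therefore unknown, and intervals cover counting error only. Fold and score values are the authors', and scores were compared only within a list.

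Positions with an FDR of at most 0.01 in the windows were counted, placed beside 70 kb tiles, set against Foxp3 intervals and paired between cell types within 200 bp. Named were all Foxp3 peaks of the windows, all passing positions within 200 bp of them, and the 3 highest scores per library and window; other positions were named after their values were seen. The members, windows and lists were chosen with earlier results of these data known, and the tiles and sites after the files had been seen. The functions were tested on simulated data. Counts around other genes of the family needed an mm9 annotation and were not run. Calculations used Python 3.11.15, numpy 2.4.6, pandas 2.3.3, scipy 1.17.1 and matplotlib 3.10.9. Input libraries and CD4 Cbfb were not analysed here.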

Additional observations from a re-analysis of the deposited data

How the results depend on the processing

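Which positions entered a list moved the counts most. In order of Treg Elf1, Treg Ets1, Treg Cbfb, CD4 Elf1 and CD4 Ets1, the 10000 highest scores left 4, 7, 0, 4 and 5 positions in the Tnfrsf4-Tnfrsf18 window and 2, 5, 0, 5 and 1 in the Tnfrsf9 window. The 20000 highest left 5, 9, 2, 8 and 6, and 3, 5, 0, 6 and 5. With all deposited positions the counts were 16, 28, 8, 25 and 25, and 9, 15, 2, 19 and 13. An FDR of at most 0.001 left 9 Treg Ets1 and 6 CD4 Ets1 positions in the first window and 5 Treg Ets1 positions in the second. Windows 10 kb narrower or wider at each end kept every count within 1.5 times. Of the 3 Foxp3 peaks, Cbfb was at 0 with its 10000 highest scores and at 3 within 500 bp; Elf1 and Ets1 stayed at 2 or 3 under all 7 alternatives. The Ets1 median log2 ratio was -0.25 with all deposited positions, with 7 of 15 pairs higher in Treg, and stayed below 0 under all 8 alternatives. The Elf1 median, near 0, changed sign to 0.09 when centred on the genome median. Ranked by fold enrichment, the highest scores of the Tnfrsf4-Tnfrsf18 window stood at 262, 34435, 58660, 452 and 29514 in the order above, and those of the Tnfrsf9 window at 4878, 80739, 133148, 17491 and 17792. With the last 150 promoter bases, 3 of the 4 motif matches remained. No paired analysis was possible because the Foxp3 replicates were deposited as 1 combined list, and every other group used had 1 library; for the same reason no replicate could be left out. The cause of these shifts was not tested.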

Other observations

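Score and fold enrichment ordered several positions of the windows differently. Treg Elf1 had 22.0-fold at 155420722 with a score of 2.45 (rank 146943), the only passing position beyond 155408524 in the Tnfrsf4-Tnfrsf18 window. In the Tnfrsf9 window a Treg Ets1 position at 150308954 had 26.0-fold, the highest Ets1 fold there, but an FDR of 0.0172. The 2 passing positions with a fold below 1 were CD4 Elf1 at 155370764 with 0.920-fold and Treg Cbfb at 150305321 with 0.373-fold. These positions were picked after their values had been seen.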
